A study of Mus musculus with 2 samples.

Results

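The miR-29 family consists of 4 miRNA genes, Mir29a, Mir29b-1, Mir29b-2 and Mir29c, out of 2202 miRNA genes counted by small RNA sequencing of the mouse adrenal gland. The members were taken by their GENCODE M21 symbols. The mice were B6CASTF1/J females aged 18 to 20 months, the F1 offspring of a cross between the strains C57BL/6J and CAST/EiJ. They form 1 group with 2 biological replicates and no named treatment or mutation, and both replicates carry the same donor record. The spread between them is therefore that between these 2 samples and may be partly technical. A younger age, another sex or another tissue was not analysed here, so the values describe levels in old adrenal tissue and not a change with age.

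MicroRNAs pair through their seed, the bases near the 5′ end, with sites in messenger RNAs, which are then repressed. The miR-29 family is best known for repressing collagens, elastin, fibrillin and other matrix genes, and for targeting the de novo DNA methyltransferases. It is lowered by TGF-beta signalling in fibrosis of several organs, and its level has been reported to rise with age in several mouse tissues. The genes lie in a pair of clusters, Mir29b-1 with Mir29a on chromosome 6 and Mir29b-2 with Mir29c on chromosome 1.

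The mature strands are shown first because the arms the genes share decide which reads could be assigned to each gene. They were taken from RefSeq (build GRCm38.p6), are written 5′ to 3′, and have the seed, bases 2 to 8, in capitals. The 3p strands, the main product of each hairpin, are
mmu-miR-29a-3p: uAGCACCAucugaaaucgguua
mmu-miR-29b-3p: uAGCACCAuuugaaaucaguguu
mmu-miR-29c-3p: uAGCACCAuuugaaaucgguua
and the 5p strands, which lie on the other side of the hairpin, are
mmu-miR-29a-5p: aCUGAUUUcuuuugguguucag
mmu-miR-29b-1-5p: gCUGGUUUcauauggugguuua
mmu-miR-29b-2-5p: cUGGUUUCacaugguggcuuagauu
mmu-miR-29c-5p: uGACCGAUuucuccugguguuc
The 4 genes thus have 8 annotated mature entries but 7 distinct sequences, since miR-29b-3p is encoded by both Mir29b genes.

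All 4 genes share the 3p seed AGCACCA, and no other gene in the RefSeq miRNA table has a mature strand with this seed. Relative to miR-29a-3p, counted from 1 at its 5′ end, miR-29c-3p differs by the single substitution C10U. The miR-29b-3p strand has C10U, G18A, U21G and A22U and is 1 base longer. Its first 17 bases are those of miR-29c-3p. The 4 seeds of the 5p strands all differ. The end of miR-29b-3p, AGUGUU, is known from human cells as a hexamer that directs this miRNA to the nucleus. Searched as AGUGUU on the mature strand alone, it closed 2 of 1674 distinct mature sequences in the table (0.119%), those of miR-29b-3p and miR-92b-5p. It occurred anywhere in 12 of them (0.717%).

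On mm10, Mir29a (ENSMUSG00000065610.1) lies on the minus strand of chromosome 6 at 31062660 to 31062747, and Mir29b-1 (ENSMUSG00000065604.2) at 31063023 to 31063093. Mir29b-2 (ENSMUSG00000065412.3) lies on the plus strand of chromosome 1 at 195037040 to 195037120, and Mir29c (ENSMUSG00000065548.1) at 195037547 to 195037634. In each cluster the Mir29b gene comes first in the direction of transcription, with 275 bases between the hairpins on chromosome 6 and 426 bases on chromosome 1. On chromosome 6 no annotated gene contains either hairpin, and Mir29b-1 overlaps the lincRNA Gm27019 by 2 bases. Both chromosome 1 hairpins lie in an exon (195033823 to 195037904) that belongs to 1 of the 4 annotated transcripts of the noncoding gene A330023F24Rik. On the opposite strand they also lie in an untranslated exon of 1 of the 4 annotated transcripts of Cd46, which encodes a complement regulator. No other miRNA gene is annotated within 100 kb of either cluster.

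**Figure D1:**
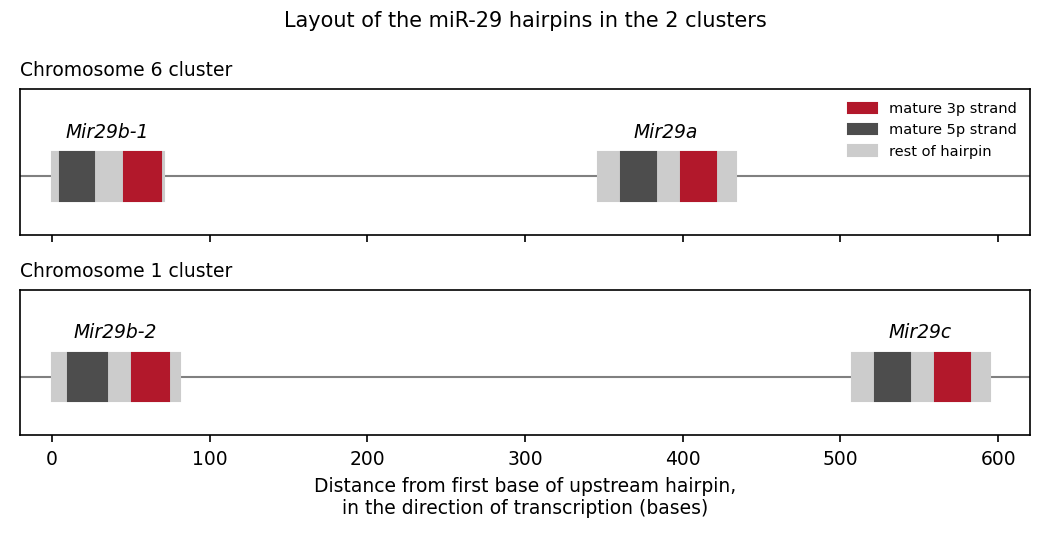
Layout of the hairpins of the chromosome 6 cluster (top) and the chromosome 1 cluster (bottom), with the horizontal axis in bases from the start of the upstream hairpin in the direction of transcription; red blocks are mature 3p strands, dark grey blocks mature 5p strands and light grey the rest of each hairpin. The Mir29b gene comes first in both clusters, and the gap of 426 bases on chromosome 1 is wider than that of 275 bases on chromosome 6.

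By identity over its whole length, each hairpin was most like a hairpin of the other cluster. Aligned end to end, the Mir29a and Mir29c hairpins were identical at 71 of 91 alignment columns (78.0%), and those of Mir29b-1 and Mir29b-2 at 60 of 82 (73.2%). Within a cluster the identity was 60.4% for Mir29a and Mir29b-1 and 62.8% for Mir29b-2 and Mir29c. The longest run of identical bases was 25 between the Mir29b hairpins, which covers the whole of miR-29b-3p. It was 22 between Mir29b-1 and Mir29c, 19 between Mir29b-2 and Mir29c, and 14 between Mir29a and Mir29c. A read of miR-29b-3p therefore aligns to both clusters, whereas full-length reads of miR-29a-3p and miR-29c-3p differ in sequence from those of every other member.

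Raw reads per miRNA gene on its own strand totalled 2291030 in replicate 2 and 2590051 in replicate 1, and CPM are counts per 1000000 of these totals. Multi-mapping reads, stand in a row of their own outside the gene counts. They made up 28.0% of all 6993665 reads in replicate 2 and 24.0% of all 9807567 reads in replicate 1, and their sequences cannot be read from the tables. No miRNA defines the adrenal cortex, so the label was checked with markers of other tissues. The neuroendocrine Mir375 stood at 54040 CPM in replicate 2 and 62443 CPM in replicate 1. Markers of liver, striated muscle, kidney and gut epithelium, gonad and pancreatic acinar cells each summed to at most 702 CPM in either library.

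Together the miR-29 genes held about 1% of the counted miRNA reads, nearly all of it from Mir29a. Their counts summed to 21115 in replicate 2, which is 0.922% of own-strand counts (Wilson 95% interval 0.909 to 0.934). In replicate 1 the sum was 35084, which is 1.35% (1.34 to 1.37). The mean was 1.14% ± 0.306 (SD, n = 2). Of the counts of the family, Mir29a took 87.9% ± 2.35 and Mir29c took 11.6% ± 2.25 (SD, n = 2 each). Mir29b-1 took 0.343% ± 0.0557 and Mir29b-2 took 0.234% ± 0.0434 (SD, n = 2 each). Intervals cover counting error only, and they treat each read as independent, which PCR copies are not.

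Mir29a, the member with the most counts, reached 18904 counts (8251 CPM, Wilson 95% interval 8135 to 8369) in replicate 2. In replicate 1 it reached 30245 counts (11677 CPM, 11547 to 11809). Among the 2202 genes it ranked 25 in replicate 2 and 22 in replicate 1, and its mean was 9964 ± 2423 CPM (SD, n = 2). It was therefore among the miRNA genes with the most counts in both libraries, and lower in replicate 2. Reads that align to several places are left out of this ranking. Genes that share a mature strand may therefore rank lower in it than their miRNAs would.

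The mature 3p strand of Mir29c differs from that of Mir29a by a single base. Mir29c had 2104 counts in replicate 2 (918 CPM, 880.0 to 958) and 4612 in replicate 1 (1781 CPM, 1730.0 to 1833). It ranked 82 in replicate 2 and 59 in replicate 1, with a mean of 1350 ± 610 CPM (SD, n = 2). The intervals of Mir29a and Mir29c did not overlap in either library, and Mir29a was the higher in each.

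Mir29b-1 and Mir29b-2, which share their 3p strand, had far fewer counts. Mir29b-1 had 64 counts in replicate 2 (27.9 CPM, 21.9 to 35.7) and 134 in replicate 1 (51.7 CPM, 43.7 to 61.3), a mean of 39.8 ± 16.8 CPM (SD, n = 2). Mir29b-2 had 43 counts in replicate 2 (18.8 CPM, 13.9 to 25.3) and 93 in replicate 1 (35.9 CPM, 29.3 to 44.0), a mean of 27.3 ± 12.1 CPM (SD, n = 2). Their intervals overlapped in replicate 2, and in replicate 1 by 43.7 to 44.0 CPM. Since reads of miR-29b-3p align to both genes, these counts are no measure of miR-29b abundance. The tables do not separate the arms of a hairpin, so which strand or trimmed form the counted reads came from is not known.

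The order of the members, Mir29a, Mir29c, Mir29b-1 and Mir29b-2, was the same in both libraries. The neighbours in it lay apart beyond the counting intervals in both libraries, except Mir29b-1 and Mir29b-2. The hairpins are 88, 88, 71 and 81 bases long in this order. Per kilobase of hairpin, the mean levels were 113231 CPM for Mir29a, 15335 for Mir29c, 561 for Mir29b-1 and 338 for Mir29b-2, so the order did not depend on length. With only 43 to 134 counts, the values of the Mir29b genes are the least precise.

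**Figure D2:**
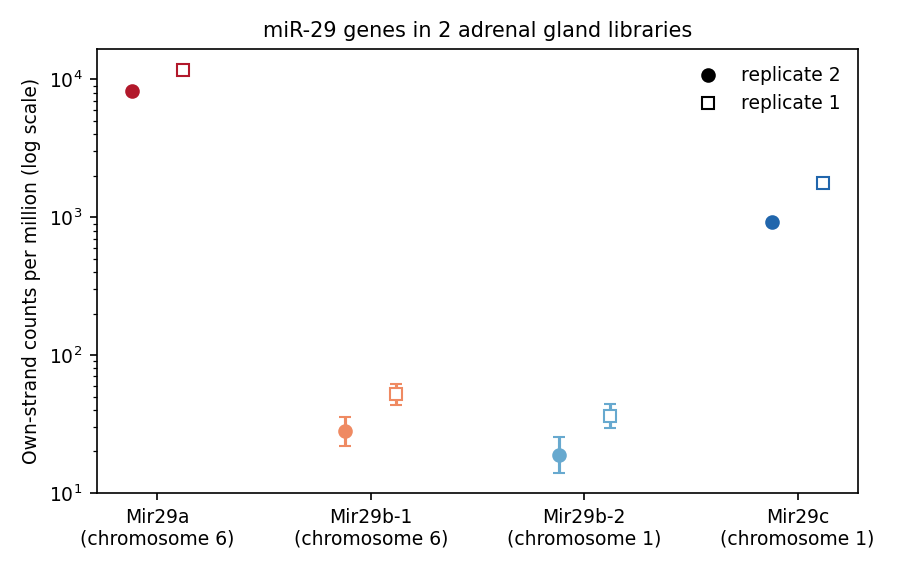
Own-strand CPM (vertical log axis) of the 4 miR-29 genes in replicate 2 (filled circles) and replicate 1 (open squares), with Wilson 95% intervals as bars, which are smaller than the symbols for Mir29a and Mir29c. Mir29a stands highest at 8251 and 11677 CPM and Mir29b-2 lowest at 18.8 and 35.9 CPM, and each gene is lower in replicate 2.

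No reads fell on the opposite strand of any member in either library. By counting error alone, 0 reads leave room for up to 3 counts, or 1.31 CPM in replicate 2 and 1.16 CPM in replicate 1. The counts with strand ignored were equal to the own-strand counts for all 4 genes. The Cd46 exon opposite the chromosome 1 cluster therefore added no reads to them.

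The chromosome 6 cluster outweighed the chromosome 1 cluster in both libraries. Its 2 genes held 18968 counts in replicate 2, against 2147 for the chromosome 1 cluster, a ratio of 8.83 (exact 95% interval 8.45 to 9.24). In replicate 1 they held 30379 counts against 4705, a ratio of 6.46 (6.26 to 6.66). The mean log2 ratio was 2.92 ± 0.32 (SD, n = 2). The chromosome 6 cluster thus gave 89.8% (Wilson 95% interval 89.4 to 90.2) of the family's counts in replicate 2, against 86.6% (86.2 to 86.9) in replicate 1.

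This ratio came from Mir29a and Mir29c, and the Mir29b genes gave another. Mir29a exceeded Mir29c by 8.98 times in replicate 2 (8.59 to 9.40) and 6.56 times in replicate 1 (6.36 to 6.77). Mir29b-1 exceeded Mir29b-2 by 1.49 times in replicate 2 (0.996 to 2.24) and 1.44 times in replicate 1 (1.10 to 1.90). The interval in replicate 2 includes equal counts. The clusters differed strongly in the genes whose mature strands can be assigned, and much less in the genes that share one.

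Within each cluster the Mir29b gene had a small fraction of the counts of its neighbour. Mir29a had 295 times the counts of Mir29b-1 in replicate 2 (231 to 384) and 226 times in replicate 1 (190.5 to 269). Mir29c had 48.9 times the counts of Mir29b-2 in replicate 2 (36.2 to 67.8) and 49.6 times in replicate 1 (40.4 to 61.6). The excess of the neighbour was larger on chromosome 6 in both libraries, with intervals that did not overlap. As the loss of reads that align to both clusters is not known, these ratios do not give the output of the hairpins.

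All 4 miR-29 genes were lower in replicate 2 than in replicate 1. The raw counts of each gene were tested between the libraries by an exact conditional binomial test, two-sided, with TMM-scaled totals and Benjamini-Hochberg adjustment over 367 genes with a summed count of at least 20. Log2 ratios are replicate 2 over replicate 1. Mir29a had a log2 ratio of -0.46 (exact 95% interval -0.49 to -0.44, adjusted p = 1.9e-267) and Mir29c one of -0.92 (-0.99 to -0.84, adjusted p = 1.1e-136). Mir29b-1 had -0.85 (-1.30 to -0.41, adjusted p = 1.7e-04, exact test) and Mir29b-2 had -0.89 (-1.46 to -0.36, adjusted p = 0.0011, exact test). Its only source of error is counting, and it compares these libraries, not conditions.

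A difference of this size was common between the libraries. Of the 367 genes tested, 230 (62.7%) differed, 119 of them lower in replicate 2 (32.4%) and 111 higher (30.2%). The median log2 ratio was -0.87 over the 4 members and 0.01 over all genes tested. The absolute log2 ratio of Mir29a was the median of all 367 genes, 0.46, with 183 genes above it. Those of Mir29c, Mir29b-2 and Mir29b-1 were exceeded by 76, 85 and 97 genes. Each member lay within the 2-fold range that held 298 of the 367 genes.

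**Figure D3:**
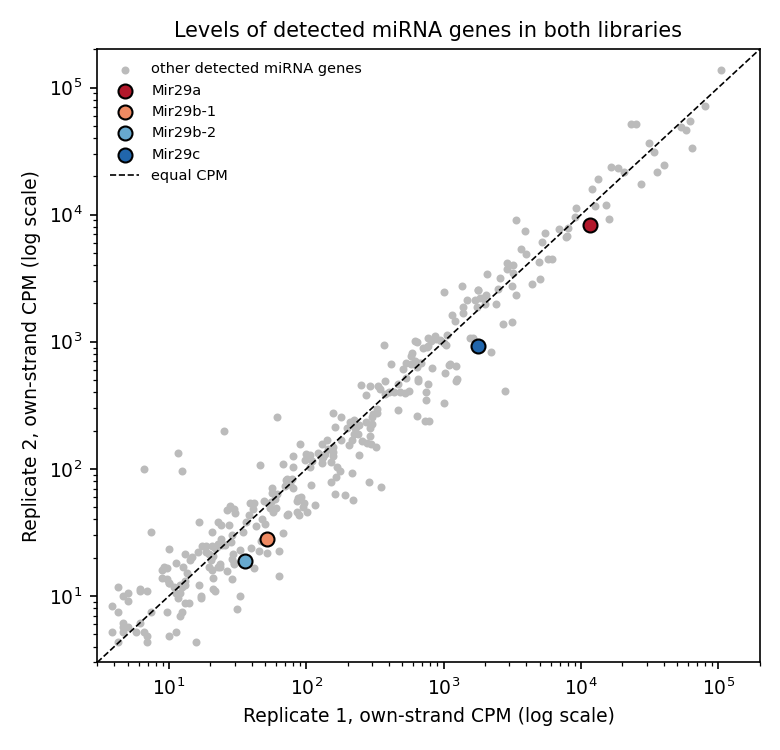
Own-strand CPM of the 339 miRNA genes with at least 10 counts in each library, in replicate 2 (vertical log axis) against replicate 1 (horizontal log axis), with the miR-29 genes in colour and a dashed line at equal CPM. All 4 members lie below the line, within the cloud of the other genes.

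Several other markers also differed between the libraries. The liver Mir122 was higher in replicate 2, at 702 CPM against 622 CPM in replicate 1. In replicate 2 the endothelial Mir126a stood at 33412 CPM, against 64752 CPM in replicate 1, and the smooth muscle Mir143 and Mir145a together at 20276 CPM, against 28442 CPM. The 4 striated muscle markers Mir206, Mir208a, Mir208b and Mir499 summed to 81.2 CPM in replicate 2 and 597 CPM in replicate 1. The erythroid Mir451a stood at 349 CPM in replicate 2 and 740 CPM in replicate 1, while the leukocyte Mir142 and Mir150 summed to 922 CPM in replicate 2 and 933 CPM in replicate 1. Their part in the difference in miR-29 was not tested. In a whole gland, fewer cells of a type and less RNA per cell cannot be told apart.

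The library difference was not equal in the 2 clusters. The chromosome 6 cluster had a log2 ratio of -0.47 (-0.49 to -0.44) and the chromosome 1 cluster one of -0.92 (-0.99 to -0.84). The cluster ratio was thus higher in replicate 2 than in replicate 1 by 0.45 on the log2 scale (exact interval 0.37 to 0.53). Fisher's exact test on the 4 summed counts gave p = 1.5e-30, two-sided, and 6.4e-30 after Benjamini-Hochberg adjustment over the 5 ratios compared. This comparison needs no scaling of the libraries, and its only source of error is counting. Over the 367 genes tested, the median absolute log2 ratio between the libraries was 0.46. How often other pairs of genes shifted by as much was not tested, so the shift cannot be called particular to these clusters.

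Of the 4 ratios between single members, that of Mir29a over Mir29c passed the test. It shifted by 0.45 (0.37 to 0.53; Fisher's exact test, adjusted p = 6.4e-30). Mir29b-1 over Mir29b-2 shifted by 0.0468 (-0.66 to 0.77; Fisher's exact test, adjusted p = 0.926), an interval that includes the shift of the other pair. Within the clusters, Mir29a over Mir29b-1 shifted by 0.39 (-0.05 to 0.84; Fisher's exact test, adjusted p = 0.132) and Mir29c over Mir29b-2 by -0.02 (-0.56 to 0.54; Fisher's exact test, adjusted p = 0.926). At these counts, a shift of the Mir29b genes like that of Mir29a against Mir29c was not detectable.

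**Figure D4:**
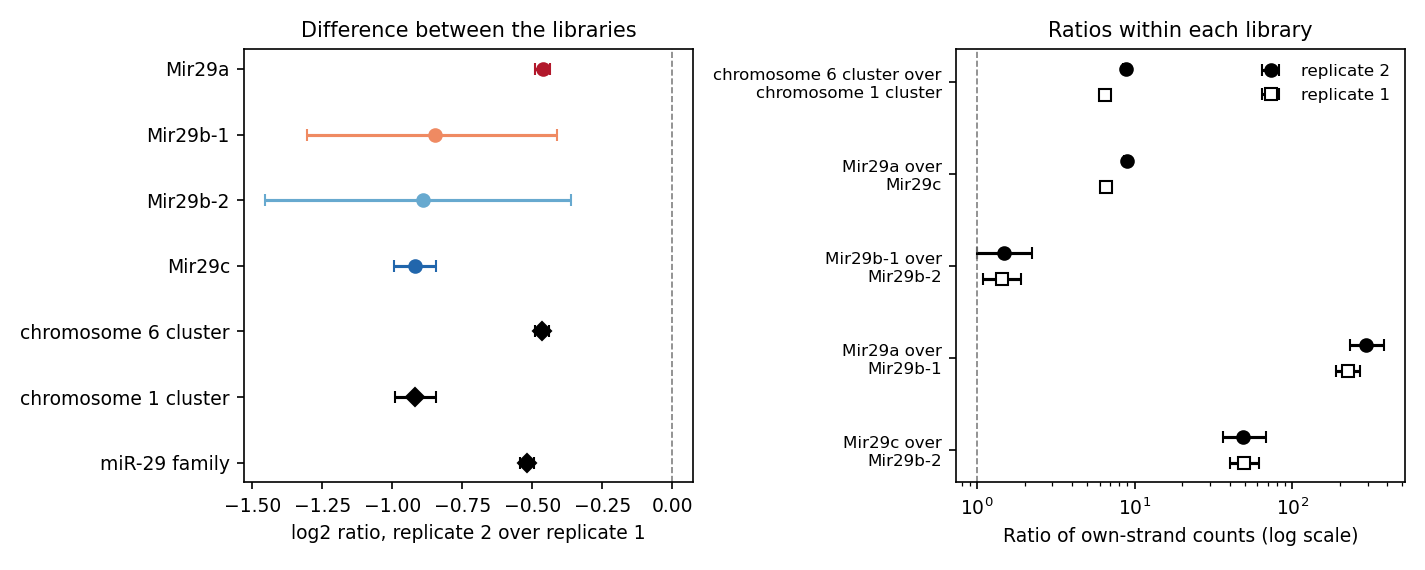
Left, log2 ratios of replicate 2 over replicate 1 for each miR-29 gene (circles) and for the summed clusters and family (diamonds), with exact 95% intervals and a dashed line at equal levels. Right, ratios of own-strand counts between members within replicate 2 (filled circles) and replicate 1 (open squares) on a log axis, with exact 95% intervals; Mir29a over Mir29c is 8.98 and 6.56, and Mir29b-1 over Mir29b-2 is 1.49 and 1.44.

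The low counts of the Mir29b genes were set beside those of other miRNA genes with a shared mature strand. Of the 2202 genes, 954 matched a RefSeq hairpin by symbol and coordinates. Sharing was judged only from the mature strands listed there. Mir29b-1 and Mir29b-2 belong to the 56 genes with 1 of 2 mature strands also encoded elsewhere, of which 40 were detected, meaning at least 10 counts in each library. The detected genes had a median of 58.0 CPM and ranged from 6.14 to 3608 CPM. Of these 40, 21 lay above Mir29b-1 and 13 below Mir29b-2. Mir29a and Mir29c belong to the 864 genes with no shared strand, of which 248 were detected with a median of 142 CPM. Of the 34 genes whose annotated strands are all shared, 3 were detected.

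**Figure D5:**
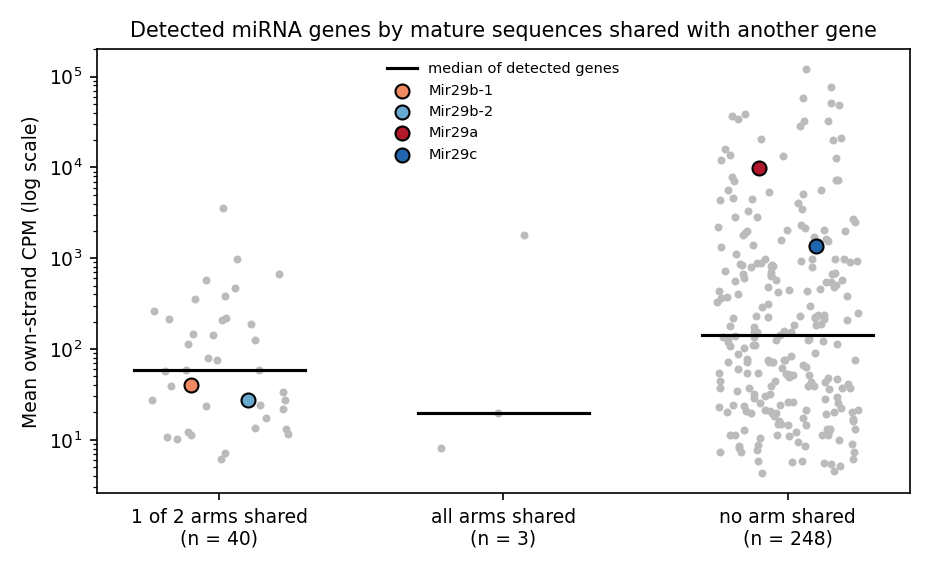
Mean own-strand CPM (vertical log axis) of detected miRNA genes, grouped by whether 1 of 2, all or none of their mature strands are also encoded by another gene; grey points are genes, black lines the medians of 58.0, 19.6 and 142 CPM, and coloured points the miR-29 genes. Mir29b-1 at 39.8 CPM and Mir29b-2 at 27.3 CPM lie below the median of their class, and Mir29a and Mir29c far above that of theirs.

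The Mir29b pair was among the more evenly counted pairs of genes with an identical mature strand. Among the genes matched to a RefSeq hairpin there were 36 pairs in which a strand is listed for exactly 2 genes. In 19 of them both genes were detected, and pairs with an unmatched gene are left out. In these 19, summed over the libraries, the higher gene had between 1.46 and 49.9 times the counts of the lower, with a median of 3.20, and the ratio of 1.46 was that of Mir29b-1 and Mir29b-2. Within replicate 2 alone, Mir26a-1 and Mir26a-2, a pair named after its values were seen, were closer to each other, with 145 and 123 counts. The pairs with the most counts were Mirlet7f-1 with Mirlet7f-2, Mirlet7c-1 with Mirlet7c-2, and Mirlet7a-1 with Mirlet7c-2. The Mir29b pair ranked 14 of 36 with 334 counts. Some genes stand in more than 1 pair. Mirlet7a-2 stands in none, as no strand listed for it was identical to that of another gene.

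The genes nearest to each member in level over the 2 libraries were found by distance on the log2 CPM scale among detected genes. For Mir29a these were Mir151, Mir22 and Mirlet7e, at distances of 0.43, 0.48 and 0.52. For Mir29c they were Mir149, Mir221 and Mir132, at 0.25, 0.30 and 0.35. Mir378c, Mir496a and Mir410 lay nearest to Mir29b-1, at 0.14, 0.35 and 0.36, and Mir378d, Mir6240 and Mir218-2 nearest to Mir29b-2, each at 0.27 to 0.28. Over 2 libraries such likeness says only that the levels were close.

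Other miRNAs linked to fibrosis moved in both directions between the libraries. Of 26 listed genes 21 were tested, 12 were lower in replicate 2, 8 were higher and 1 did not pass. Over all genes tested, 62.7% differed, 32.4% lower and 30.2% higher. The median log2 ratio was -0.38 in the list and 0.01 over all genes. The pro-fibrotic Mir21a, hosted by Vmp1, was counted 49389 times in replicate 2 and 92558 times in replicate 1 (log2 ratio -0.69, exact 95% interval -0.71 to -0.68). Mir26b, of a family reported to restrain fibrosis, was counted 52882 times in replicate 2 and 48015 times in replicate 1 (log2 ratio 0.35, 0.34 to 0.37). The list held 7.08% of counts in replicate 2 and 8.14% in replicate 1. These shares exceeded those of the miR-29 family, which has far fewer genes than the list.

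Of the miR-148 and miR-152 genes, which like miR-29 are known to target DNA methyltransferases, all 3 were tested and 1 was lower in replicate 2, a share near the 32.4% of all genes that were lower. Mir152 was counted 164 times in replicate 2 and 901 times in replicate 1 (log2 ratio -2.24, -2.49 to -2.002; adjusted p = 2.6e-100, exact test). Mir148a was counted 551 times in replicate 2 and 576 times in replicate 1 (log2 ratio 0.15, -0.02 to 0.32; adjusted p = 0.123, exact test). Together these genes held 0.0352% of counts in replicate 2 and 0.0618% in replicate 1.

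Of 11 other miRNAs linked to ageing or senescence, 9 were tested, of which 4 were lower in replicate 2, 3 were higher and 2 did not pass, beside 32.4% lower and 30.2% higher over all genes. Their median log2 ratio was -0.02, against 0.01 over all genes. After Mir21a the most abundant was Mir22, a miRNA linked to senescence of fibroblasts, with 21194 counts in replicate 2 and 41262 in replicate 1 (log2 ratio -0.75, -0.77 to -0.72). Of 45 tested genes with a mature strand at several loci, 16 were lower in replicate 2 and 10 were higher, with a median log2 ratio of -0.04. In all, 26 of these 45 genes differed, beside 62.7% over all genes, of which 32.4% were lower and 30.2% higher. That list includes the Mir29b genes and is led by Mirlet7f-2, at 2826 CPM in replicate 2 and 4390 CPM in replicate 1.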

How the data were processed

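Small RNA of adrenal gland total RNA was sequenced in 2 samples of 1 group, which the labels give as shorter than 30. The deposited tables hold raw counts per miRNA gene with strand ignored, on the own strand and on the opposite strand. The build was mm10 and the annotation GENCODE M21, per the deposited notes; no aligner, counting program or trimming step was given in the sources used here. The columns were read by position, in the order strand ignored, own strand and opposite strand. Rows that name no gene (unmapped, several places, no feature, ambiguous; 67.2% of reads in replicate 2 and 73.6% in replicate 1) were left out of totals and tests. Reads of CAST/EiJ alleles that differ from the C57BL/6J build may be missing, which was not tested. All 2202 identifiers matched GENCODE M21. The 4 hairpins had the same positions in RefSeq.

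The exact conditional binomial test used TMM factors of edgeR 4.0.16 (0.987 for replicate 2, 1.01 for replicate 1) computed on genes with a summed count of at least 20. Log2 ratios had a prior count of 0.5, and a gene differed at an adjusted p of 0.05. The test was tested on simulated data, in which the counts of unchanged genes varied by counting error alone. Fisher's test and the exact intervals used scipy 1.17.1. Alternatives were DESeq2 1.42.0 size factors, library totals, other count minimums, strand ignored, all reads as denominator, a prior count of 5, other member pairs and leaving out each replicate.

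Genes were named by rule: the members, the 3 nearest in level to each, the 2 most abundant of each list, and the 3 pairs with the highest counts. Members and lists were chosen with earlier results of these data known.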

Additional observations from a re-analysis of the deposited data

Results flagged for a closer look

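Reads that align to several places lie outside the gene counts. They made up 28.0% of all reads in replicate 2 and 24.0% in replicate 1. Reads of miR-29b-3p align to both clusters and belong to this class by sequence, but the tables do not say how many of them it holds.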

How the results depend on the processing

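No paired analysis was possible because there is 1 group. All 4 miR-29 genes stayed lower in replicate 2 and past the threshold in each alternative that tested them. Their log2 ratios ranged from -0.60 to -0.44 for Mir29a, -1.05 to -0.90 for Mir29c, -0.98 to -0.81 for Mir29b-1 and -1.02 to -0.83 for Mir29b-2. The lowest values came from TMM factors computed with no filter on low counts, which moved the median of all genes tested to -0.10. With a minimum summed count of 200 the Mir29b genes were not tested, so 2 members differed, and 16 genes with a mature strand at several loci did; fewer genes are tested by construction. Per all reads, the family held 0.330%, with Mir29a at 2893, Mir29c at 386, Mir29b-1 at 11.4 and Mir29b-2 at 7.82 per 1000000 reads, as the denominator is larger. With Mir29b-1 over Mir29b-2 in place of the clusters, the mean log2 ratio was 0.55 and its shift between libraries 0.0468, no longer past the threshold (Fisher's exact test, p = 0.906); the counts are fewer and the cause was not tested. Leaving out each replicate gave 0.922% to 1.35% for the family and 2.69 to 3.14 for the cluster log2 ratio. The number of genes that differed ranged from 181 to 230. It was 181 of 229 tested at a minimum summed count of 200 and 230 of 367 in the main setting. With no filter on low counts, 219 of 724 tested genes differed. The share that differed thus depended on which genes were tested. Depth limits the Mir29b genes, which have at most 134 counts in a library.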
